A study of Mus musculus with 8 samples.

Results

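The proteasome genes of C2C12 cells, a mouse myoblast line that turns to the osteoblast lineage under bone morphogenetic protein 2 (BMP-2), were followed on expression BeadChips with and without dynasore, a small molecule that blocks the GTPase dynamin and with it vesicle fission at the plasma membrane. The members were all probes whose annotated symbol begins with Psma, Psmb, Psmc, Psmd, Psme, Psmf or Psmg and a number, which took 46 of 18138 probes and 45 of 16502 genes. The signal of 42 genes exceeded background on 2 or more of the 8 arrays, and these were tested. Psmc3ip and Psme3ip1 share the letters but encode proteins that are no subunit and no assembly factor, so they are given apart. Psmd3, Psma8, Psmb11, Psmf1 and Psmg4 were not analysed here.

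Cells were serum-starved for 4 h before BMP-2, the last 2 h of it with drug or vehicle. They were then kept for 6 h with or without BMP-2, in serum-free medium that still held drug or vehicle. The DMSO group received 0.05% DMSO, and the BMP-2+DMSO group 30 nM BMP-2 with that vehicle. The Dynasore group received 40 µM dynasore, and the BMP-2+Dynasore group both agents. Dynasore came from a stock dissolved in DMSO, by the study's methods. Each group had 2 arrays, described as biological duplicates of 1 cell line, so the p-values measure the spread between these cultures. The study's methods kept only 1 of the BMP-2+DMSO arrays for testing because the duplicates differed. The fit of 7 arrays below uses replicate 2 as that array, since it matches the log2 values of the study's lists, although replicate 2 stands apart from the other 7 arrays, and fits with both arrays or with replicate 1 are given beside it.

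The proteasome degrades proteins that carry ubiquitin chains. Its core particle is a stack of alpha rings (Psma), which gate the chamber, and beta rings (Psmb), which hold the proteases. The regulatory particle caps the core with a base, whose ATPases (Psmc) unfold the substrate, and a lid (most of Psmd) that removes ubiquitin. Psme genes encode other caps, Psmb8, Psmb9 and Psmb10 encode proteases that replace their constitutive counterparts in interferon-treated cells, and Psmg genes encode factors that build the core. In mammalian cells with too little proteasome activity, the transcription factor Nfe2l1 is known to raise many of these genes together through antioxidant response elements.

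Promoters are shown for 4 genes on which the account turns, the lid genes Psmd14 and Psmd12, which rose with dynasore, and the cap genes Psme1 and Psme2, which fell. They are RefSeq sequences on GRCm38.p6, each 300 bases long and 5′ to 3′ on the gene's strand, from 250 bases before the annotated start to 50 after it. Psmd14 lies on the plus strand at chr2:61711444-61711743, Psmd12 on the plus strand at chr11:107479278-107479577, Psme1 on the plus strand at chr14:55578244-55578543 and Psme2 on the minus strand at chr14:55591052-55591351. Capitals mark matches, on either strand, to TGACNNNGC (antioxidant response element core), the interferon-stimulated response element core (GAAA, any 2 bases, GAAA) or CCAAT.
Psmd14: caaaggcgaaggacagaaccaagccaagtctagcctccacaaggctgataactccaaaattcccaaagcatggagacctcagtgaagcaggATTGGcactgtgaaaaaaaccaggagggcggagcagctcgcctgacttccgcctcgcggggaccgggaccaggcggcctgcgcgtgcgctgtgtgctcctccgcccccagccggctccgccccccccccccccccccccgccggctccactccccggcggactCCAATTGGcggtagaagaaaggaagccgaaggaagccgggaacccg
Psmd12: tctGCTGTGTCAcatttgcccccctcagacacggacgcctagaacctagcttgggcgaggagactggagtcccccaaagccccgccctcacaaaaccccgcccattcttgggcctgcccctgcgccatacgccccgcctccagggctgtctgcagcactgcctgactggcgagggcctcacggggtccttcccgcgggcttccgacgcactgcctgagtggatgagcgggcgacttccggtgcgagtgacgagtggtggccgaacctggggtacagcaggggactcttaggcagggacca
Psme1: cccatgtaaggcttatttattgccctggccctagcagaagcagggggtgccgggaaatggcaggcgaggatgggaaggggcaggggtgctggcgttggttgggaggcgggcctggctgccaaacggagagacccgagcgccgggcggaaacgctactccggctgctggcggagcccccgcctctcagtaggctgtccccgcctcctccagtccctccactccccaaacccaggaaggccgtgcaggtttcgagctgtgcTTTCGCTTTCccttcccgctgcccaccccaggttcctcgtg
Psme2: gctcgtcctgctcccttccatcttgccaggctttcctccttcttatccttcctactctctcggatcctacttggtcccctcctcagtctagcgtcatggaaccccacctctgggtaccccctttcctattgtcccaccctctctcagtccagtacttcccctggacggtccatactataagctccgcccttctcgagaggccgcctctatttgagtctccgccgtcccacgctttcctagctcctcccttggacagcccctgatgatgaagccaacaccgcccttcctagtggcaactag

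The Psmd12 window held TGACNNNGC on the minus strand near its 5′ end, starting 247 bases before the start site. The Psme1 window held the interferon element core on the minus strand, starting at base 10 of the transcript. Psmd14 held 3 matches to CCAAT, 2 of which overlap on opposite strands just after the start site, and the Psme2 window held none of these 3 motifs. Over the 39 of 45 member genes with a promoter in the table, TGACNNNGC stood in 6 (15.4%), the interferon element core in 4 (10.3%) and CCAAT in 15 (38.5%). The shares of all 27025 genes with a window of this length were 14.0%, 3.99% and 41.1%. The genes with TGACNNNGC were Psmb5, Psmb6, Psmc6, Psmd9, Psmd12 and Psme4, of which Psmd12 alone passed against DMSO in Dynasore or BMP-2+Dynasore, and Psmc6 was not tested. Those with the interferon element core were Psmb3, Psmd4, Psmd9 and Psme1. Psme1 fell in Dynasore and in BMP-2+Dynasore, Psmd4 rose in Dynasore, and Psmb3 and Psmd9 passed in neither. A match is a run of letters and was not tested as a binding site.

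All values are on a log2 scale after background correction and quantile normalization over the 8 arrays. Apart from 1 BMP-2+DMSO array the duplicates lay close together. Over the 42 tested members the median difference between duplicates was 0.15 in DMSO, 0.12 in Dynasore and 0.18 in BMP-2+Dynasore, against 0.77 in BMP-2+DMSO, where 15 members differed by more than 1. The dim probes centred on a deposited intensity of 241.8 on BMP-2+DMSO replicate 2, against −1.22 to 14.2 on 6 arrays and 45.3 on BMP-2+Dynasore replicate 2. The BMP-2 target Id3 was at 8.30 to 8.44 on the 4 arrays without BMP-2 and at 11.28 to 11.86 on the 4 with it. Smad6, another BMP-2 target, was at 11.06 on BMP-2+DMSO replicate 1 but at 6.89 on replicate 2, below the 7.69 and 7.63 of DMSO, so replicate 2 went against its label for that gene. The stress gene Ddit3 lay 5.16 higher in Dynasore than in DMSO. Of 6 measured myoblast markers, Des and Chrna1 were above background on all 8 arrays, Myod1 and Itga7 on 7, Myog on 6 and Myf5 on none, and all 10 measured markers of macrophages, epithelium, endothelium and adipocytes on none. The summed linear level of the 6 myoblast markers was 11950 and 12630 in DMSO and 10150 and 14090 in BMP-2+DMSO. It was 6900 and 7231 in Dynasore, and 6517 and 5719 in BMP-2+Dynasore, so lower on every array with dynasore than on every array without it. The brightest markers, Des and Chrna1, each kept that order. On BMP-2+DMSO replicate 2, Myod1 (5.63) and Itga7 (5.52) lay below every array with dynasore (6.17 to 6.75 and 9.305 to 10.10). Myog (6.06) there lay within the range of the arrays with dynasore (6.01 to 6.41). The part of the summed level in the proteasome results was not tested. In cultures measured whole, less RNA per cell and fewer expressing cells cannot be told apart.

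**Figure D1:**
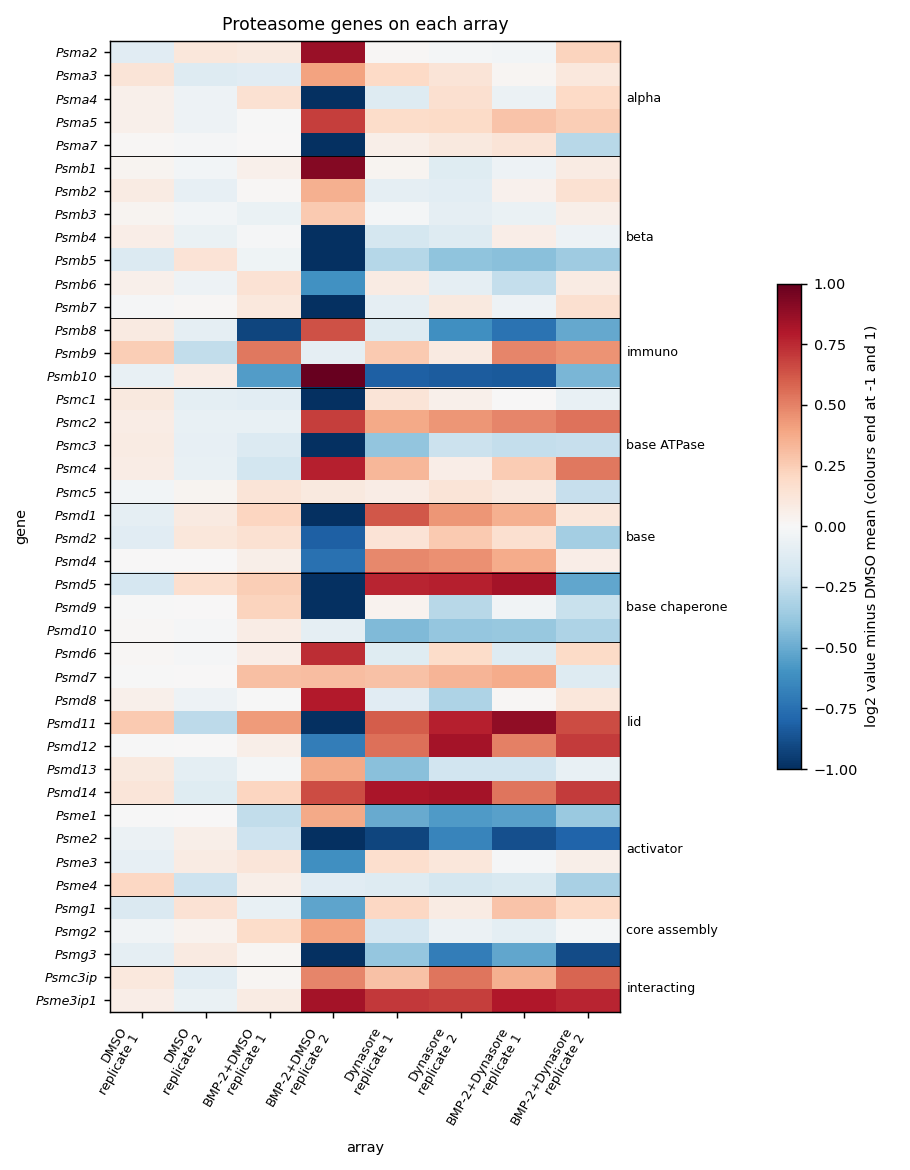
Each cell is the log2 value of 1 gene (rows, by class) on 1 array (columns) minus the mean of the DMSO arrays, for the 42 tested members; colours end at −1 and 1. Lid genes Psmd11, Psmd12 and Psmd14 were high on all 4 arrays with dynasore, Psme1 and Psme2 were low on them, and BMP-2+DMSO replicate 2 stood apart in both directions.

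With dynasore alone, the lid genes Psmd11, Psmd12 and Psmd14 and the ubiquitin receptor gene Psmd4 rose, and the cap genes Psme1 and Psme2 and the protease gene Psmb10 fell. Against DMSO, 8 of the 42 members rose and 6 fell past an adjusted p of 0.05 (limma, 7 arrays, Benjamini-Hochberg over all 10244 tested probes). That is 19% of the members higher, where 17.9% of all probes were called higher, and 14.3% lower, where 19.5% of all probes were called lower, so the number of calls is not a result about the proteasome. The median change was 0.02 over the members and −0.00 over all probes. The members ranged from −0.83 to 0.83. The calls rested on the spread of the 7 arrays. With both BMP-2+DMSO arrays in the fit, 0 members passed in limma, 3 had an unadjusted p under 0.05 (Psmd14, Psme3ip1 and Psmd12), and 3.21% of all probes passed in either direction.

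Among the genes of the regulatory particle, counted with the 3 chaperones that assemble its base, 6 of 18 rose and 2 fell in Dynasore against DMSO. The chaperone gene Psmd10 was 1 of the 2 that fell. Of the 7 measured Psmd lid genes 3 rose and none fell. Over all probes 17.9% were called higher and 19.5% lower. Whether such small classes differ from those shares was not tested. Sem1, a small lid subunit with another symbol, fell by 0.33 ± 0.11 (adjusted p = 0.0395), from 12.77 and 12.74 in DMSO to 12.57 and 12.28 in Dynasore. Psmd14 encodes the lid protease that cuts ubiquitin chains from a substrate before it enters the core. Its level was 9.85 and 9.60 on the DMSO arrays, 10.54 and 10.55 with Dynasore, and 10.26 and 10.42 with BMP-2+Dynasore. Both groups with dynasore lay above both DMSO arrays without overlap. The rise was 1.77-fold in Dynasore (0.83 ± 0.13 SE, adjusted p = 0.000481 in limma) and 1.54-fold in BMP-2+Dynasore (0.62 ± 0.13, adjusted p = 0.00294). BMP-2+DMSO replicate 1 was at 9.94 and replicate 2 at 10.38, so the latter reached into the range of the arrays with dynasore.

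Psmd12, a scaffold subunit of the lid, was at 10.45 and 10.46 in DMSO, 11.005 and 11.29 in Dynasore, and 10.96 and 11.15 in BMP-2+Dynasore. It was at 10.52 and 9.77 in BMP-2+DMSO, so every array with dynasore lay above every array without it. With Dynasore it rose by 0.69 ± 0.13 (adjusted p = 0.00165), and with both agents by 0.60 ± 0.13 (adjusted p = 0.00373). Psmd11, also a scaffold of the lid, showed the same order in a dimmer signal, with 7.71 and 7.19 in DMSO against 8.05 and 8.23 in Dynasore and 8.33 and 8.11 in BMP-2+Dynasore, and with 7.88 and, not above background, 5.91 in BMP-2+DMSO. Its changes were 0.69 ± 0.20 (adjusted p = 0.0180) and 0.77 ± 0.20 (adjusted p = 0.0101), and without DMSO replicate 2 they were 0.43 (adjusted p = 0.207) and 0.51 (adjusted p = 0.135). The call with dynasore alone was also lost without Dynasore replicate 1 or replicate 2. The other 4 lid genes passed in neither comparison. Psmd7, which pairs with Psmd14, changed by 0.32 (adjusted p = 0.124) in Dynasore, Psmd6 by 0.03, Psmd8 by −0.21 and Psmd13 by −0.31 (adjusted p = 0.0589).

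In the base, Psmd1, a large scaffold, and Psmd4, a receptor for ubiquitin chains, rose in Dynasore. Psmd4 was at 13.04 on both DMSO arrays, 13.53 and 13.50 in Dynasore, and 13.42 and 13.11 in BMP-2+Dynasore. BMP-2+DMSO was at 13.10 and 12.30. All 4 arrays with dynasore lay above all 4 without, but 13.11 and 13.10 almost tied. Only the change in Dynasore passed (0.47 ± 0.11, adjusted p = 0.00616), and that in BMP-2+Dynasore was 0.22 (adjusted p = 0.140). Psmd1 was at 9.86 and 10.04 in DMSO, 10.57 and 10.39 in Dynasore, and 10.30 and 10.06 in BMP-2+Dynasore. Its changes were 0.53 ± 0.14 (adjusted p = 0.0107) and 0.24 (adjusted p = 0.208), and the first was 0.44 without either Dynasore replicate 1 (adjusted p = 0.116) or DMSO replicate 1 (adjusted p = 0.105). The difference between the Dynasore and BMP-2+Dynasore groups did not pass for either gene (adjusted p = 0.444 for Psmd4 and 0.469 for Psmd1). The third base scaffold, Psmd2, changed by 0.20 and −0.09.

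Among the ATPases of the base the called changes had both signs. Psmc2 rose, from 13.47 and 13.32 in DMSO to 13.77 and 13.84 in Dynasore and 13.88 and 13.94 in BMP-2+Dynasore. BMP-2+DMSO was at 13.32 and 14.08, the latter above all arrays with dynasore. Its changes were 0.41 ± 0.09 (adjusted p = 0.00441) and 0.51 ± 0.09 (adjusted p = 0.00104), and the first was 0.34 (adjusted p = 0.0544) without DMSO replicate 2. Psmc4 changed by 0.20 (adjusted p = 0.269) in Dynasore and with both agents rose by 0.39 ± 0.13 (adjusted p = 0.0346), where the arrays were at 12.16 and 12.43 against 11.98 and 11.83 in DMSO. Psmc3 fell by 0.30 ± 0.11 (adjusted p = 0.0446) in Dynasore, from 12.73 and 12.56 to 12.25 and 12.43, and was −0.23 (adjusted p = 0.110) in BMP-2+Dynasore. The Psmc4 call was lost without either DMSO array (adjusted p up to 0.212) or without BMP-2+Dynasore replicate 2, where the change was 0.25. The Psmc3 call was lost without any 1 of the DMSO or Dynasore arrays, with changes of −0.21 to −0.40 and adjusted p up to 0.314. Psmc1 and Psmc5 changed by −0.07 to 0.10 and passed in neither comparison.

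Of the 3 chaperones that assemble the base, Psmd10 (gankyrin), which holds ATPases during assembly, fell. It was at 10.40 and 10.38 in DMSO, 10.47 and 10.30 in BMP-2+DMSO, 9.95 and 10.01 in Dynasore, and 10.01 and 10.08 in BMP-2+Dynasore. Every array with dynasore lay below every array without it. It fell by 0.41 ± 0.11 with dynasore alone (adjusted p = 0.0143) and by 0.35 ± 0.11 with both agents (adjusted p = 0.0315). Neither call held without any 1 of the DMSO or Dynasore arrays, where the changes were −0.34 to −0.44 and the adjusted p reached 0.117 and 0.143. Psmd9 changed by −0.12 and −0.13. Psmd5 was at 7.11 and 7.44 in DMSO and near 8 on 3 arrays with dynasore (8.04, 8.05 and 8.10), but at 6.75 on BMP-2+Dynasore replicate 2 and 5.92 on BMP-2+DMSO replicate 2. Its change in Dynasore was 0.77 with a 95% interval from −0.40 to 1.95, which passed no test.

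**Figure D2:**
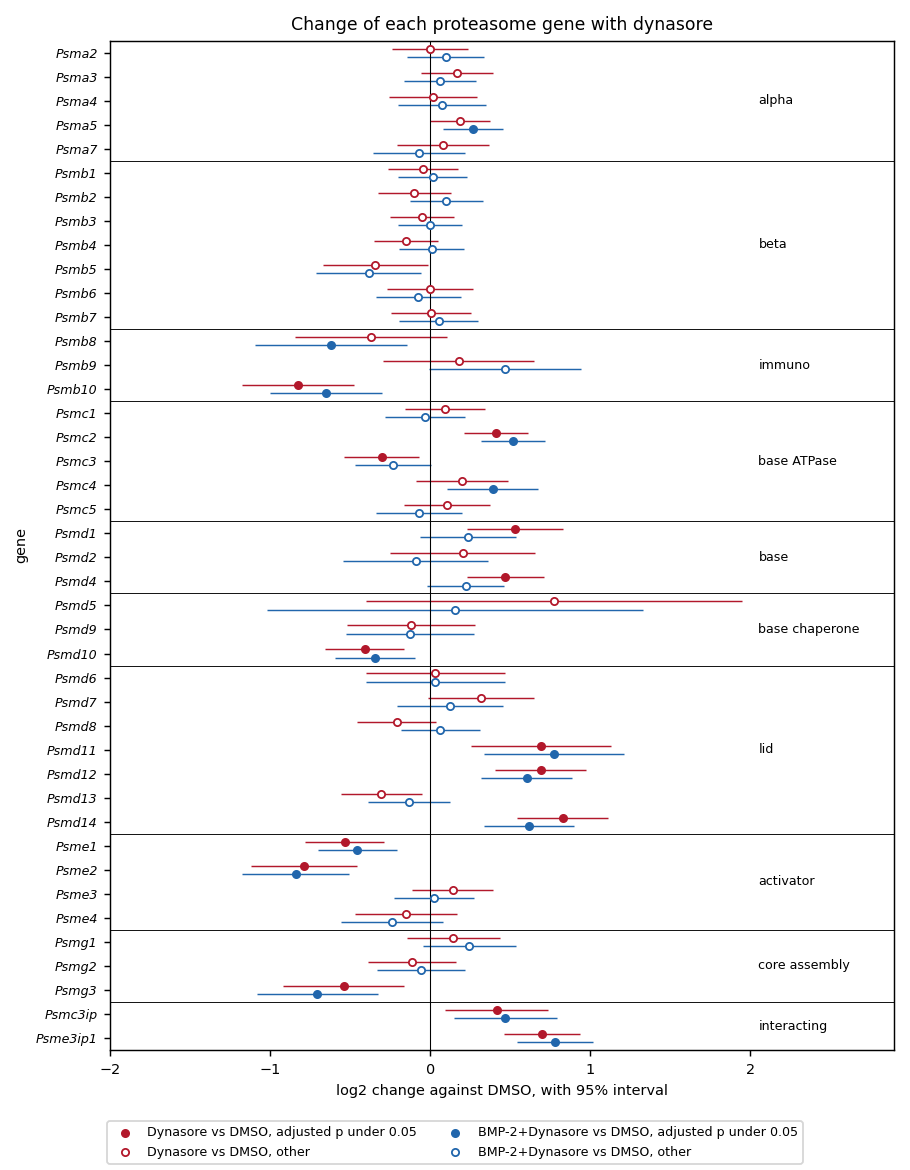
Log2 change against DMSO with its 95% interval for each tested member (rows, by class), in Dynasore and in BMP-2+Dynasore from the fit of 7 arrays; filled points passed an adjusted p of 0.05. Constitutive core genes lay between −0.39 and 0.27, lid genes reached 0.83, and Psme1, Psme2 and Psmb10 lay below 0 in both.

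Few genes of the core particle passed a test. Of the 12 tested alpha and constitutive beta genes, none passed in Dynasore and only Psma5, an alpha subunit, passed in BMP-2+Dynasore. Psma5 was at 13.72 and 13.61 in DMSO, 13.84 and 13.85 in Dynasore, and 13.94 and 13.91 in BMP-2+Dynasore, while BMP-2+DMSO was at 13.66 and 14.35. With both agents it rose by 0.27 ± 0.08 (adjusted p = 0.0290), against 0.21 (adjusted p = 0.189) without DMSO replicate 2. That call was also lost without any of DMSO replicate 1, Dynasore replicate 1 or Dynasore replicate 2. The 5 alpha genes changed by −0.00 to 0.19 in Dynasore, and the 7 constitutive beta genes by −0.35 to 0.00. The lowest of the latter was Psmb5, the catalytic subunit with chymotrypsin-like activity, at 9.02 and 9.29 in DMSO against 8.87 and 8.75 in Dynasore and 8.74 and 8.80 in BMP-2+Dynasore. The arrays with dynasore lay below both DMSO arrays and BMP-2+DMSO replicate 1 (9.11) but above replicate 2 (6.73), and the Psmb5 changes of −0.35 (adjusted p = 0.0936) and −0.39 (adjusted p = 0.0618) missed the threshold. The other catalytic genes, Psmb6 (caspase-like) and Psmb7 (trypsin-like), changed by −0.08 to 0.05. The 95% interval of Psmb7 in Dynasore ran from −0.25 to 0.25. Simulated data of this comparison held 100 changes of 0.5 and 100 of 1 among 10244 probes, and the fit called 23% of those of 0.5. In the real comparison 17.9% of all probes were called higher and 19.5% lower. The adjustment for many tests was therefore less strict there, and the 23% does not carry over. How many changes of that size were missed was not tested.

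The probes of 3 further core and base genes gave no level. Psma1, Psma6 and Psmc6 were above background on 0 of the 8 arrays, as was a second probe for Psma3, whose first probe was bright on all 8.

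Of the 3 interferon-inducible beta genes, Psmb10 fell with dynasore. It was at 8.96 and 9.11 in DMSO, 8.22 and 8.20 in Dynasore, and 8.19 and 8.58 in BMP-2+Dynasore. The fall was 1.77-fold in Dynasore (−0.83 ± 0.16, adjusted p = 0.00188) and 1.57-fold in BMP-2+Dynasore (−0.65 ± 0.16, adjusted p = 0.00750, and 0.0807 without DMSO replicate 2). On the BMP-2+DMSO arrays it was at 8.47 and 10.07, and the first of these lies below BMP-2+Dynasore replicate 2, so the arrays with and without dynasore overlapped. Psmb8 was dim, at 6.39 and 6.21 in DMSO, 5.38 and 6.93 in BMP-2+DMSO, 6.17 and 5.68 in Dynasore, and 5.56 and 5.79 in BMP-2+Dynasore. It was above background on both DMSO arrays and not well above background on either BMP-2+Dynasore array, which gives a fall of at least 1.18-fold (adjusted p = 0.0414). That call was lost without either DMSO array (adjusted p = 0.207 and 0.0957) or without BMP-2+Dynasore replicate 1 (adjusted p = 0.0979). BMP-2+DMSO replicate 1 was not above background either. The third gene of the set, Psmb9, was above background on 5 of 8 arrays and changed by 0.18 (adjusted p = 0.570) and 0.47 (adjusted p = 0.113).

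The Psme1 and Psme2 genes, whose products form an interferon-inducible cap that opens the core without using ATP, fell together. That is 2 of the 4 activator genes called lower and none higher. Over all probes 19.5% were called lower in Dynasore and 18.9% in BMP-2+Dynasore, and a count in 4 genes was not tested against those shares. Psme1 was at 11.10 and 11.11 in DMSO, 10.86 and 11.48 in BMP-2+DMSO, 10.60 and 10.54 in Dynasore, and 10.56 and 10.74 in BMP-2+Dynasore. All 4 arrays with dynasore lay below all 4 without it. The fall was 1.45-fold in Dynasore (−0.54 ± 0.11, adjusted p = 0.00326) and 1.37-fold in BMP-2+Dynasore (−0.46 ± 0.11, adjusted p = 0.00784, and 0.0520 and 0.0530 without DMSO replicate 1 and 2). Psme2 was at 9.52 and 9.64 in DMSO, 8.66 and 8.92 in Dynasore, and 8.70 and 8.78 in BMP-2+Dynasore. BMP-2+DMSO was at 9.37 on replicate 1 and not above background on replicate 2. Against DMSO, Psme2 fell 1.73-fold with dynasore alone (−0.79 ± 0.15, adjusted p = 0.00186) and 1.79-fold with both agents (−0.84 ± 0.15, adjusted p = 0.00119), and both calls held whichever of the 6 other arrays was left out. The mouse genome also has Psme2b, a close copy of Psme2, and whether the probe reads both was not tested. Psme3, a nuclear cap subunit, changed by 0.14 and 0.02, and Psme4, the large single-chain cap, by −0.15 and −0.24, none of which passed.

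Of the 3 tested core assembly factors Psmg3 fell. It was at 9.55 and 9.73 in DMSO, 9.25 and 8.94 in Dynasore, and 9.12 and 8.74 in BMP-2+Dynasore, with no overlap with DMSO. BMP-2+DMSO was at 9.66 on replicate 1 and at 6.71 on replicate 2, the latter below every array with dynasore. The fall was 0.54 ± 0.17 (adjusted p = 0.0289) with dynasore alone and 0.71 ± 0.17 (adjusted p = 0.00735) with both agents. The first call was lost without either DMSO array or without Dynasore replicate 2 (adjusted p up to 0.252), and the second without DMSO replicate 2 (adjusted p = 0.0821). Psmg1 changed by 0.14 and 0.24 and Psmg2 by −0.11 and −0.06. Among the genes that share only the letters, Psme3ip1, which binds Psme3, was at 10.53 and 10.39 in DMSO, 11.17 and 11.15 in Dynasore, 11.26 and 11.22 in BMP-2+Dynasore, and 10.55 and 11.30 in BMP-2+DMSO. Its rise of 0.70 ± 0.11 with dynasore alone (adjusted p = 0.000479) and of 0.78 ± 0.11 with both agents (adjusted p = 0.000220) held whichever of the 6 other arrays was left out. Psmc3ip, a meiotic recombination factor, rose by 0.41 ± 0.14 (adjusted p = 0.0447) and 0.47 ± 0.14 (adjusted p = 0.0256). The first call was lost without any 1 of the DMSO or Dynasore arrays (adjusted p up to 0.325), and the second without either DMSO array or BMP-2+Dynasore replicate 2 (adjusted p up to 0.192).

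**Figure D3:**
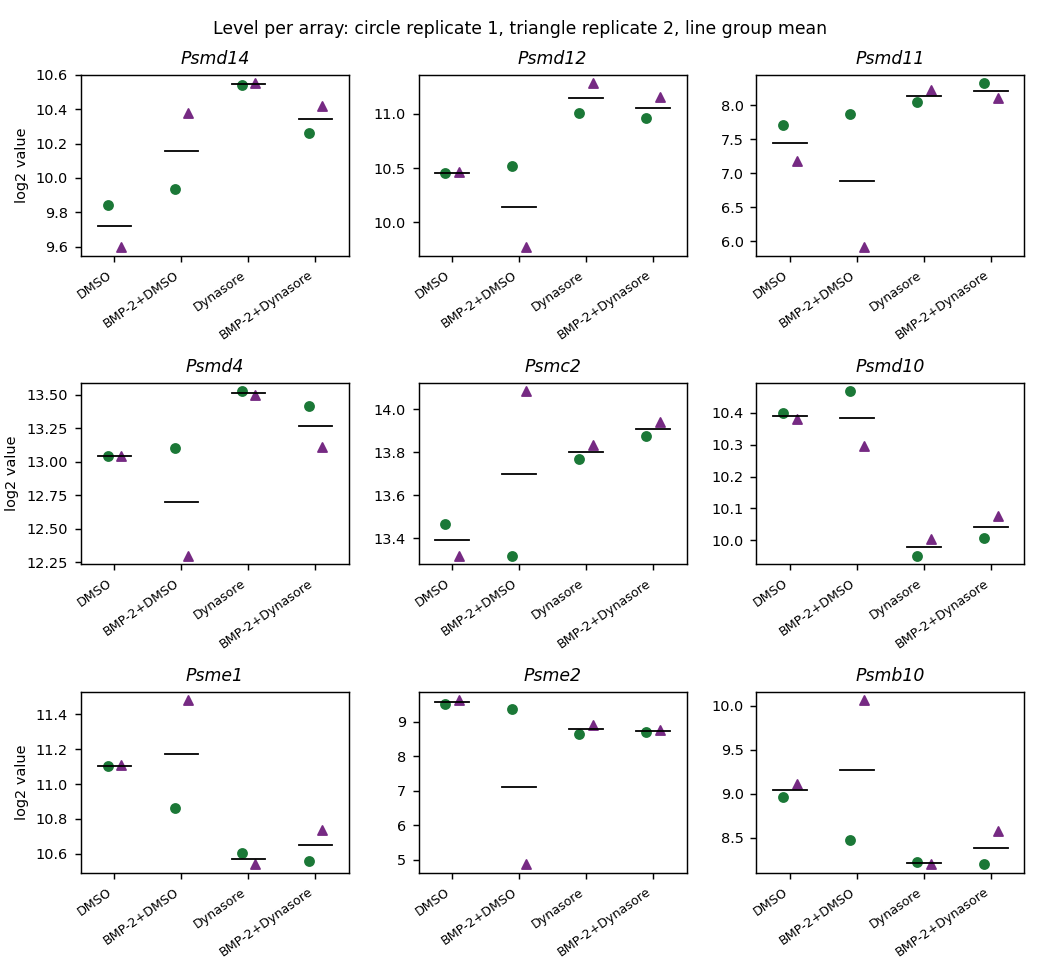
Log2 level of 9 members on each array, by group; circles are replicate 1, triangles replicate 2 and lines group means, and each panel has its own axis. Psmd12, Psmd11 and Psmd4 were higher, and Psmd10 and Psme1 lower, on all 4 arrays with dynasore than on all 4 without. For Psmd4 the nearest arrays, at 13.11 and 13.10, almost tied. Psme2 was at 4.87 on BMP-2+DMSO replicate 2 alone.

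BMP-2 together with dynasore gave the same number of calls against DMSO as dynasore alone, 8 higher and 6 lower. The shares over all probes were 19.5% higher and 18.9% lower, close to the members' 19% and 14.3%. With all 8 arrays 0 members passed in limma, 2 (Psmd14 and Psme3ip1) had an unadjusted p under 0.05, and 3.55% of all probes passed. The comparisons of Dynasore and of BMP-2+Dynasore with DMSO share the DMSO arrays, so their calls are not independent. The split into higher and lower moved with the scaling. With no normalization beyond the authors' own it was 5 to 9 in Dynasore and 4 to 7 in BMP-2+Dynasore. There the median of all probes lay at −0.10 and −0.16. Scaling the arrays to 1 median gave 7 to 5 and 9 to 3. The share of all probes was not computed under these scalings, so these splits are not results about the members. The 28 called changes against DMSO in these groups kept their direction under every alternative run. Alternatives such as the fits with all 8 arrays or with replicate 1 leave these log2 values as they are, so the direction could not change there. The 28 were also picked for having passed, so their constant direction is no separate test of them.

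Adding BMP-2 to dynasore changed no member past the threshold. BMP-2+Dynasore against Dynasore gave 0 members higher, where 0.654% of all probes passed, and 0 lower, where 0.225% passed in limma. At an unadjusted p under 0.05, Psmd8 was higher (0.27) and Psmd4 lower (−0.25). With 8 arrays the count was 0, also at an unadjusted p under 0.05, and 0.0195% of all probes passed. The changes ran from −0.62 (Psmd5, with a 95% interval from −1.79 to 0.56) to 0.29 (Psmb9). The interval for Psmd14 ran from −0.49 to 0.07 and that for Psme2 from −0.39 to 0.28.

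The response to BMP-2 without dynasore depended on the array used. With replicate 2, as in the fit of 7 arrays, 16 members were called higher and 18 lower against DMSO, where 41.3% and 28.1% of all probes were. With replicate 1 in its place, 0 passed in either direction in limma, 2 were lower at an unadjusted p under 0.05, and 2.06% of all probes passed higher and 2.54% lower. With both arrays 0 passed, also at an unadjusted p under 0.05, and 0.205% of all probes passed. Relative to the DMSO mean, the members lay between −0.92 (Psmb8) and 0.53 (Psmb9) on replicate 1 and between −4.71 (Psme2) and 1.03 (Psmb10) on replicate 2. Psme2 was not above background on replicate 2, so that array gives only a level at least 7.83-fold lower than in DMSO. Genes whose products share a ring lay on opposite sides of the DMSO mean on replicate 2. Psma7 was at −2.85 and Psma2 at 0.87 there, Psmb5 at −2.42 and Psmb1 at 0.92, and Psmc1 at −2.50 and Psmc4 at 0.78. On replicate 1 these 6 genes lay between −0.19 and 0.10. Psmd2, Psmd5, Psmd9, Psmd11 and Psme2 were above background on the other 7 arrays and not on replicate 2. The part of that array's raised background in these values was not tested.

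**Figure D4:**
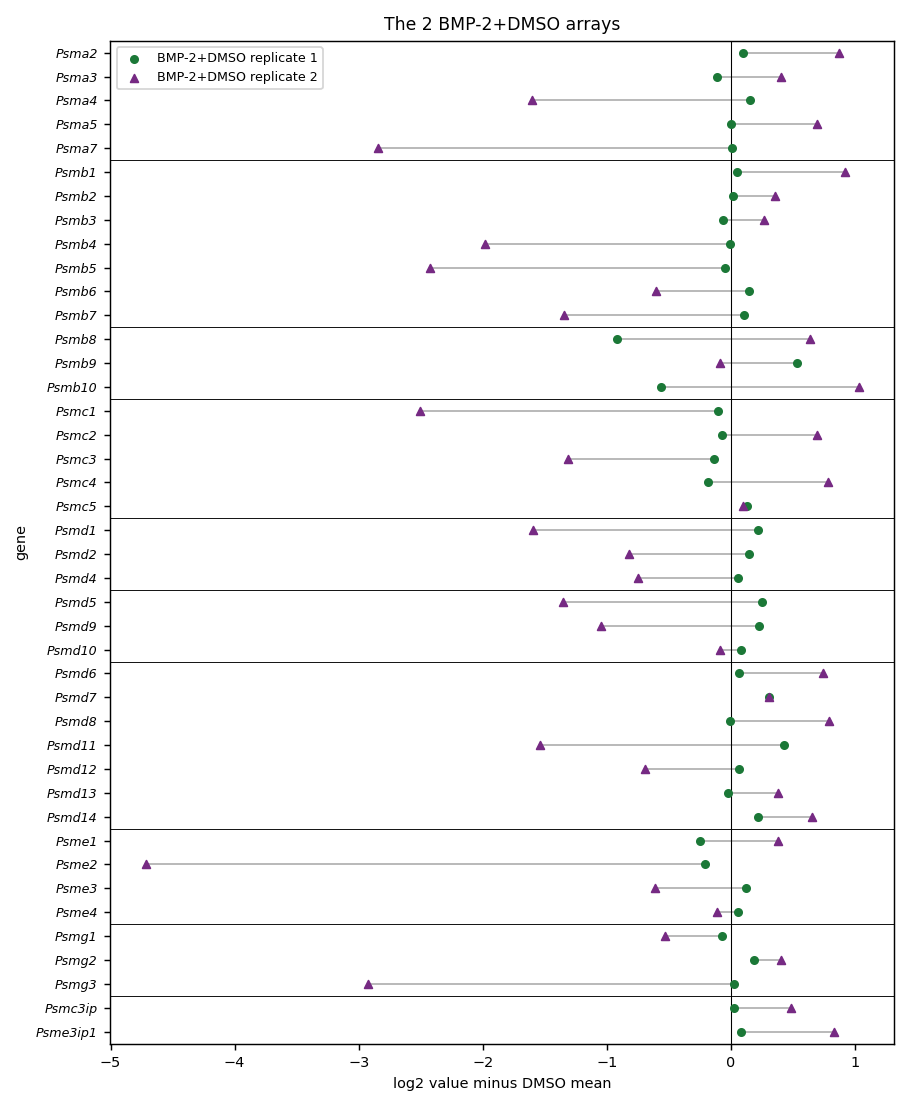
Log2 value of each tested member on the 2 BMP-2+DMSO arrays minus the mean of the DMSO arrays; circles are replicate 1 and triangles replicate 2. Replicate 1 stayed between −0.92 and 0.53 and replicate 2 spread from −4.71 to 1.03.

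The effect of dynasore in cells given BMP-2 was read against each BMP-2+DMSO array. Against replicate 2, the BMP-2+Dynasore arrays had 18 members called higher and 12 called lower, where 28.7% and 38.4% of all probes were called. Against replicate 1, 4 were higher and 3 lower, under the 15.5% and 13.5% of all probes. With both arrays 0 passed in limma, 1 had an unadjusted p under 0.05, and 3.58% of all probes passed. Tests against replicate 1 and of Dynasore against DMSO take their spread from the same duplicates, and all arrays were normalized together. Their calls are therefore not independent. In its group means, the comparison with replicate 1 shares no array with Dynasore against DMSO. All 14 members called in Dynasore against DMSO had the same sign in it, as did 95% of the 3834 probes called there, and 6 of the 14 (42.9%) passed again, against 61.6% of those probes. The number is therefore not a result about the members. With both BMP-2+DMSO arrays 11 of the 14 kept the sign (85.8% of probes) and with replicate 2 it was 7 of 14 (71.7% of probes). The 6 were Psmc2 (0.59 ± 0.11, adjusted p = 0.00307), Psmd12 (0.54 ± 0.16, adjusted p = 0.0267), Psme3ip1 (0.69 ± 0.13, adjusted p = 0.00308), Psme2 (−0.63 ± 0.17, adjusted p = 0.0182), Psmd10 (−0.42 ± 0.14, adjusted p = 0.0410) and Psmg3 (−0.73 ± 0.20, adjusted p = 0.0215). Psmd14 was 0.40 (adjusted p = 0.0829), Psmb10 −0.09 (adjusted p = 0.779) and Psmd1 0.02, none of which passed. The seventh call was Psmc4 (0.58 ± 0.16, adjusted p = 0.0214).

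**Figure D5:**
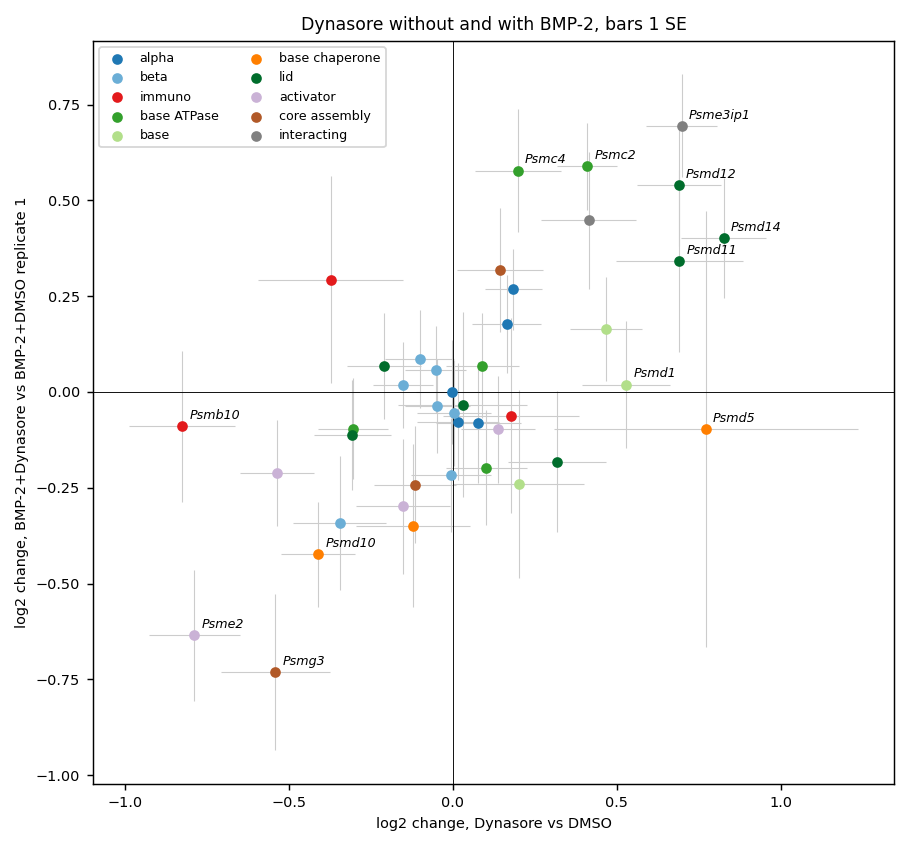
Log2 change with dynasore in the absence of BMP-2 (x axis, Dynasore against DMSO) and in its presence (y axis, BMP-2+Dynasore against BMP-2+DMSO replicate 1), for the tested members coloured by class; bars are 1 SE. Psmc2, Psmd12 and Psme3ip1 lay above 0 and Psme2, Psmg3 and Psmd10 below 0 on both axes, while Psmb10 was at −0.83 and −0.09.

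Set against the arrays without dynasore other than BMP-2+DMSO replicate 2, all 4 arrays with dynasore were higher for 8 members (Psma5, Psmc2, Psmd4, Psmd11, Psmd12, Psmd14 and both interacting proteins), where 22.9% of all probes were. They were lower for 6 members (Psmb5, Psmc3, Psmd10, Psme1, Psme2 and Psmg3), also against 22.9% of all probes. With replicate 2 included, Psmd4, Psmd11 and Psmd12 stayed higher, against 12.8% of all probes, and Psmd10 and Psme1 lower, against 14.3%. The interaction, which is the BMP-2 response with dynasore minus that with DMSO, was positive for 17 members and negative for 11 with replicate 2, where 23.3% and 32.9% of all probes were called. With replicate 1 it passed for 0 members in limma, at 0.752% and 0.342% of all probes, and for 2 (1 in each direction) at an unadjusted p under 0.05. With both arrays it passed for 0 members and 0% of all probes, also for 0 members at an unadjusted p under 0.05. For the next test, of any difference among the groups, the share of all probes was computed only with replicate 2. Its counts in other fits are not results about the members. Any difference among the 4 groups passed a moderated F test for 34 members, where 77.6% of all probes passed, and for 13 with replicate 1.

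Genes that act with the proteasome but carry other symbols, were read beside the members. Of a list of 27 such genes, drawn up with earlier results of these data known, 18 were on the array and 15 were tested. In Dynasore 8 rose and 2 fell, and in BMP-2+Dynasore 7 rose and 1 fell, with medians of 0.55 and 0.47, where 17.9% of all probes were called higher and 19.5% lower in Dynasore, and 19.5% higher and 18.9% lower in BMP-2+Dynasore. With all 8 arrays 1 of them passed in each comparison. Zfand2a, an arsenite-inducible protein that binds the proteasome, was at 9.91 and 9.81 in DMSO, 13.04 and 12.77 in Dynasore, and 12.81 and 12.85 in BMP-2+Dynasore. It rose by 3.05 ± 0.11 (adjusted p = 2.20e-08) and 2.98 ± 0.11 (adjusted p = 2.43e-08). BMP-2+DMSO was at 10.10 and 11.24, below all arrays with dynasore.

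Nfe2l1, the transcription factor of proteasome genes named above, was at 12.14 and 12.20 in DMSO, 13.10 and 13.06 in Dynasore, and 12.96 and 13.54 in BMP-2+Dynasore. It rose by 0.91 ± 0.17 (adjusted p = 0.00355) and 1.08 ± 0.17 (adjusted p = 0.00142), while BMP-2+DMSO was at 12.02 and 13.75. Sqstm1, a receptor that hands ubiquitinated cargo to autophagy, rose by 1.83 ± 0.35 with dynasore alone (adjusted p = 0.0204), and its change with both agents was 1.29 (adjusted p = 0.0532). Bag3, a co-chaperone of the same route, rose by 0.69 ± 0.09 and 0.74 ± 0.09 (adjusted p = 0.000159 and 8.81e-05). Hspa4l, a chaperone with a dim signal, rose by 0.64 in both (adjusted p = 0.0184 and 0.0189), from 6.46 and 6.07 in DMSO. BMP-2+DMSO was at 5.80 and 7.47, the latter above all arrays with dynasore. The 6.07 of DMSO replicate 2 and the 5.80 of BMP-2+DMSO replicate 1 were not above background (limits of 6.13 and 6.05). Nfe2l2, the oxidative stress factor, was at 6.99 and 7.17 in DMSO and near 8 on 3 arrays with dynasore (7.93, 8.17 and 7.95), but at 6.35 on BMP-2+Dynasore replicate 2, and its changes of 0.97 (adjusted p = 0.279) and 0.07 did not pass. Psmd5 was low on that same array, as given above. Pomp, which matures the core particle, fell by 0.39 ± 0.09 (adjusted p = 0.00609) and 0.28 ± 0.09 (adjusted p = 0.0305).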

How the data were processed

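C2C12 RNA of 4 groups, 2 arrays each, was hybridised to Illumina mouse BeadChips. The authors deposited a linear intensity per probe, after rank-invariant normalization in BeadStudio 3.0. A background had been subtracted, since some lie below 0. A second deposited table has 16 numbered columns that the labels do not tie to samples, so it was not used.

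Intensities were corrected with normexp (offset 16), quantile normalized and put on the log2 scale in limma 3.58.1 (R 4.3.3). A probe was above background on an array when it lay over 1.64 SD above the most frequent value of dim probes, and 10244 probes above it on at least 2 arrays were tested. Groups were fitted with lmFit and eBayes (trend and robust) on 7 arrays, with BMP-2+DMSO replicate 2 alone in its group (3 residual degrees of freedom), and again with all 8 arrays and with replicate 1. The lone array is assumed to vary like the other groups. That replicate was taken because the log2 values of the study's lists match it. Benjamini-Hochberg adjustment ran across all tested probes. Brighter probes stood for genes with several. "At least" folds set a dim group at the higher of its own signal and the lowest signal above background.

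Tested on simulated data of the size of Dynasore against DMSO, the fit recovered 89% of changes of 1 and 23% of changes of 0.5 on the log2 scale. Far fewer probes were changed in the simulation than were called in the real comparison, so these shares do not carry over to it. The number of arrays limits the precision. Full statistics went to up to 3 genes of a class with the largest change past the threshold, and to the largest interactions. Psmd5, Psmb5, Pomp and Sem1 fall outside this rule and were chosen after their values were seen. The members, lists and this rule were chosen with earlier results of these data known. Symbols are those of the array annotation. Promoters were matched by gene ID to RefSeq windows on GRCm38.p6.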

Additional observations from a re-analysis of the deposited data

Results flagged for a closer look

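The effect of BMP-2 differed between cells with and without dynasore for 28 members by the interaction test on 7 arrays. The fitted value was 4.66 ± 0.24 for Psme2 (SE, log2 scale, adjusted p = 1.54e-07 in limma), 2.76 ± 0.27 for Psmg3 (adjusted p = 1.87e-05) and 2.70 ± 0.20 for Psma7 (adjusted p = 2.76e-06). In the same test 23.3% of all probes were called positive and 32.9% negative. Whether the members differ from those shares was not tested. The fitted values and the count of 28 come from BMP-2+DMSO replicate 2, the only array of its group in that fit. Psme2 was not above background there, so its fitted value has no exact size, and the array gives only a level at least 7.83-fold lower than in DMSO. With both arrays they were 2.41, 1.28 and 1.27 (adjusted p = 0.906 each), and with replicate 1 they were 0.15, −0.19 and −0.16 (adjusted p from 0.822 to 0.837), and 0 members passed in either fit.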

How the results depend on the processing

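Counts of members called, higher and lower, moved as follows. With all 8 arrays they were 0 in every comparison and 0 for any difference among the groups, with or without quantile normalization, the latter an alternative chosen after seeing the data. When replicate 1 stood for BMP-2+DMSO instead of replicate 2, they were 0 and 0 in BMP-2+DMSO against DMSO, 4 and 3 in BMP-2+Dynasore against BMP-2+DMSO, 0 and 0 for the interaction and 13 for any difference, and the interactions of Psmg3 (−0.19) and Psma7 (−0.16) reversed. With BMP-2+Dynasore replicate 2 also left out, chosen after seeing the data, they were 0 and 2, 6 and 4, 0 and 0, and 18. Without further normalization, 5 were higher in Dynasore and 4 in BMP-2+Dynasore against DMSO, 7 were higher in BMP-2+DMSO, 5 lower in BMP-2+Dynasore against BMP-2+DMSO and 1 lower for the interaction. With arrays scaled to equal medians, 3 were lower in BMP-2+Dynasore against DMSO, and the splits were 25 to 8 in BMP-2+DMSO, 11 to 23 in BMP-2+Dynasore against BMP-2+DMSO and 8 to 24 for the interaction. These scalings put the median of all probes in BMP-2+DMSO against DMSO at −0.50 and 0.98, against 0.22. Without trend and robust, 5 were higher in BMP-2+Dynasore against DMSO. The cause of these shifts was not tested. For pairwise comparisons and the interaction, the share of all probes was computed only in the fit of 7 arrays, with all 8 arrays and with replicate 1. For any difference among the groups it was computed only in the fit of 7 arrays. Counts in the other settings are therefore not results about the members.

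Leaving out each array in turn gave 5 to 10 higher and 3 to 8 lower in Dynasore against DMSO, 4 to 10 and 1 to 7 in BMP-2+Dynasore against DMSO, 9 to 19 and 16 to 19 in BMP-2+DMSO against DMSO, 18 to 19 and 11 to 14 in BMP-2+Dynasore against BMP-2+DMSO, 0 and 0 to 4 (4 without BMP-2+Dynasore replicate 1) against Dynasore, 12 to 19 and 7 to 13 for the interaction and 29 to 39 for any difference. The counts that fell by over 1.5 times were, in Dynasore against DMSO, 5 higher without DMSO replicate 2 or Dynasore replicate 1 and 3 lower without DMSO replicate 1, DMSO replicate 2 or Dynasore replicate 2. In BMP-2+Dynasore against DMSO they were 5 higher and 3 lower without DMSO replicate 1 and 4 and 1 without DMSO replicate 2, in BMP-2+DMSO against DMSO 9 higher without DMSO replicate 2, and for the interaction 7 lower without DMSO replicate 2 or Dynasore replicate 1. Of the 28 named changes against DMSO, 12 passed whichever array was left out. With the replicate number as a block (replicate block) the counts were 7 and 5 in Dynasore and 8 and 5 in BMP-2+Dynasore against DMSO. Deviations of same-numbered arrays correlated at −0.28 to 0.50 over the 6 pairs of groups. The 0.50 was between BMP-2+DMSO and BMP-2+Dynasore, and the other pairs lay between −0.28 and 0.00. The numbers therefore gave no pairing over all groups. In those with BMP-2 both replicate 2 arrays had a raised background (241.8 and 45.3), and an effect shared by these arrays was not tested. The methods' one-way test across groups gave 26 members unadjusted and 24 after Benjamini-Hochberg, against 34 in limma. Most of all tested probes passed the one-way test too, unadjusted and adjusted, so its counts are not results about the members. Other filters, background corrections and probe choices kept every count within 1.5 times. The share of all probes was not computed with arrays left out, with the block or in these settings. Those counts are therefore not results about the members. What share of real changes of 0.5 was missed with 2 arrays a group was not tested.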
